A study of Mus musculus with 20 samples.

Results

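Nox4, Omd, Ptgfr, Chrdl2 and St3gal5 are 5 genes whose liver transcripts were higher in gonadal males than in gonadal females of a cross that separates gonadal type from sex chromosomes. They were picked from that difference in these same arrays as genes less known for a sex bias, so the difference is described here and not tested. Each was read by 1 probe, and together they are 5 of 21643 features (named genes and single unnamed probes) made from 23574 probes. Liver RNA of 20 C57BL/6J mice was hybridised with a common liver pool, 1 array per animal. Each value is read as the log2 ratio of liver over pool, on the assumption that log10 ratios were deposited. In this cross the Y chromosome, written Y-, has lost the testis-determining gene Sry, which is carried instead as a transgene inserted on an autosome. The gonadal males were XX Sry and XY-Sry mice, which carry the transgene, and the gonadal females were XX and XY- mice, which do not, with 5 animals in each of the 4 groups. All mice ate chow with 4% fat, were gonadectomized at 8 weeks of age and killed at 12 weeks after a 12 h fast, so no animal of any group had gonads when the liver was taken. The labels call the pool liver of 17 mice, the design text equal portions of RNA from every sample; it cancels in each difference between groups. Animals were numbered, and a liver is named below by its group and number.

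The 5 genes work in unrelated systems. Nox4 is an NADPH oxidase that releases mainly hydrogen peroxide and, unlike the phagocyte enzyme, is largely controlled by how much of it is made; in liver it is known from hepatocytes and from stellate cells, the cells that lay down scar matrix. Omd (osteomodulin) is a small leucine-rich proteoglycan of mineralised matrix, and Chrdl2 (chordin-like) is a secreted antagonist that binds bone morphogenetic proteins (BMPs). Ptgfr is the G protein-coupled receptor of prostaglandin F, known above all for ending luteal function and contracting the uterus. St3gal5 makes the ganglioside GM3 by adding sialic acid to lactosylceramide, the first step to the other gangliosides, and GM3 is known to dampen insulin receptor signalling. Sex bias of the intact rodent liver depends largely on the pattern of growth hormone release, which acts through STAT5.

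The genes lie on 4 autosomes, so none is carried by the chromosomes that differ between the XX and XY groups. In the RefSeq annotation of GRCm38.p6, Ptgfr lies on chromosome 3 (151798610 to 151837528), St3gal5 on chromosome 6 (72097552 to 72154571) and Omd on chromosome 13 (49582462 to 49592612). Nox4 (87244430 to 87398710) and Chrdl2 (100006404 to 100034728) both lie on chromosome 7. The promoter table of that assembly held 4 of the 5 genes; Chrdl2 had no entry. The 250 bases before the start site are shown for Nox4 (chr7:87246399-87246648, plus strand), Omd (chr13:49582212-49582461, plus strand) and Ptgfr (chr3:151837529-151837778, minus strand). The window of St3gal5, which differed as well, is described below without its letters. The stretches shown are written 5′ to 3′ on the gene's strand, with matches to the searched motifs in capitals.

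Nox4: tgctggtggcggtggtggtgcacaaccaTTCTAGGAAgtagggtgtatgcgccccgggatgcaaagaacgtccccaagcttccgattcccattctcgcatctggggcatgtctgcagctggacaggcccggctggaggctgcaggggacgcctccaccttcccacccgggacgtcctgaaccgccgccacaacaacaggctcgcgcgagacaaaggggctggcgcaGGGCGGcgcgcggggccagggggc

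Omd: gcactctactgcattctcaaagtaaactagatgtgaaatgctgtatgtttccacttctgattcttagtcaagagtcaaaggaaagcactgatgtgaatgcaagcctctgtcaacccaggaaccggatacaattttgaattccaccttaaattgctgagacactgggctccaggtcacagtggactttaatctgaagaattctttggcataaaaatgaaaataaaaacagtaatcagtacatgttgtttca

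Ptgfr: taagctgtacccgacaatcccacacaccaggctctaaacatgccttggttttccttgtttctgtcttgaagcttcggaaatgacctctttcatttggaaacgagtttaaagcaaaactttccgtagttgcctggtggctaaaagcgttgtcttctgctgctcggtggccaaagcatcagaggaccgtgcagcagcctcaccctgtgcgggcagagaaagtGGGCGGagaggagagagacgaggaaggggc

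The letters searched on both strands were AGAACA (bound by androgen and glucocorticoid receptors as part of their element), TTCNNNGAA (the STAT element, its own reverse complement), TATAAA (the core promoter element of TBP), CCAAT (bound by NF-Y) and GGGCGG (the GC box, bound by Sp factors). The motifs do not overlap in these windows. Nox4 had the STAT letters 222 bases and a GC box 24 bases before its start, and that start lies 2219 bases inside the outermost annotated start of the gene. Ptgfr had a GC box 30 bases before its start, and Omd matched none of the 5 motifs. St3gal5 (chr6:72097358-72097607, plus strand), whose window overlaps another annotated transcript start by 56 bases, had GC boxes at 124 and 46 bases and CCAAT at 78 bases. None of the 4 windows held AGAACA or TATAAA. Of 32851 promoter windows of the same length, 16.1% held AGAACA, 7.02% TTCNNNGAA, 12.4% TATAAA, 33.8% CCAAT and 32.7% GGGCGG. The windows differed in base composition: the GC content was 67.2% for Nox4 and 71.6% for St3gal5 but 38.4% for Omd, with Ptgfr (52.0%) close to the median of 52.4%. These matches are letters in a window and nothing was measured there.

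Facts of the whole set of arrays bear on all values below. The SD of log2 ratios over the probes of an array ran from 0.175 to 0.341, and the 4 arrays of widest spread (XX 2, XX 6, XY- 3 and XY- 12) were all of gonadal females. Correlations between arrays ran from -0.54 to 0.68, and 9 of 190 pairs lay below -0.3. All livers were in Cy5, so the direction was kept. The library labelled XY- 30 went against its label: the Y-linked Eif2s3y was at -3.90 there, against 0.57 to 1.34 in the other 9 livers labelled XY and -5.28 to -2.46 in XX livers. Its Y-linked Kdm5d (-3.16) and X-linked Eif2s3x (0.51) were likewise not in the ranges of those 9 livers. The label was not changed, and results that use XY- livers are given without this library too. Since the values are ratios to a liver pool, the presence of hepatocyte markers, the signal over background and the order of levels between genes cannot be read from them.

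Nox4 was the member with the cleanest separation. In XX Sry livers it stood at 0.15, 0.18, 0.31, 0.41 and 0.69, and in XY-Sry livers at -0.13, 0.39, 0.52, 0.56 and 0.78. In XX livers it stood at -0.46, -0.42, -0.36, -0.27 and -0.22, and in XY- livers at -0.79, -0.60, -0.59, -0.55 and -0.36. Every gonadal female was below the pool, 9 of 10 gonadal males were above it, and the lowest male (XY-Sry 20, -0.13) was still above the highest female (XX 35, -0.22). Complete separation with males above was seen in 12 features, 0.0554% of all; the other 4 members did not show it, and the rule that chose the genes used this contrast. The group means were 0.35 ± 0.22 in XX Sry, 0.42 ± 0.34 in XY-Sry, -0.35 ± 0.10 in XX and -0.58 ± 0.15 in XY- animals (SD, n = 5 each). The difference between gonadal types was 0.85 ± 0.09 (SE), a 1.80-fold higher level in gonadal males. It was 0.70 ± 0.13 between the XX groups and 1.001 ± 0.13 between the XY groups. Without the library labelled XY- 30 the overall difference was 0.88, and without the 4 arrays of widest spread 0.80.

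Omd varied most among XY-Sry livers, and its difference between the gonadal types was close to that of Ptgfr. It stood at -0.06, 0.13, 0.27, 0.32 and 0.42 in XX Sry livers and at -0.77, 0.42, 0.46, 0.63 and 1.57 in XY-Sry livers. In XX livers the values were -1.30, -0.77, -0.52, -0.43 and -0.40, and in XY- livers -1.15, -0.997, -0.91, -0.67 and -0.65. All 10 gonadal females were below the pool, and 9 of 10 gonadal males were above every female. The exception, XY-Sry 20 at -0.77, lay inside the female range, and XY-Sry 5 at 1.57 was far above the other males. These 2 livers set the SD of the XY-Sry group, 0.83 around a mean of 0.46, against 0.22 ± 0.19 in XX Sry, -0.69 ± 0.37 in XX and -0.88 ± 0.22 in XY- animals (SD, n = 5 each). The gonadal males were 1.12 ± 0.20 (SE) higher, or 2.18-fold, with 0.90 ± 0.28 between XX groups and 1.34 ± 0.28 between XY groups. The difference was 1.15 without the library labelled XY- 30 and 1.04 without the 4 arrays of widest spread.

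Ptgfr, the only membrane receptor among the 5, was high in XX Sry livers and split in XY-Sry livers. The XX Sry values were -0.29, 0.45, 0.69, 0.81 and 1.26, and the XY-Sry values were -0.65, -0.56, -0.18, 0.52 and 0.59. In XX livers it stood at -1.52, -0.79, -0.50, -0.49 and -0.15, and in XY- livers at -1.35, -1.04, -0.92, -0.73 and -0.60. All females were below the pool, but only 6 of 10 males were above every female, and 3 of the 4 others were XY-Sry livers. The group means were 0.58 ± 0.57 in XX Sry, -0.05 ± 0.59 in XY-Sry, -0.69 ± 0.52 in XX and -0.93 ± 0.29 in XY- animals (SD, n = 5 each). The difference by gonadal type was 1.07 ± 0.21 (SE, 2.10-fold), made of 1.27 ± 0.30 between XX groups and 0.87 ± 0.30 between XY groups. It was 1.11 without the library labelled XY- 30 and 0.83 without the 4 arrays of widest spread.

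Chrdl2 varied little except in XY- livers. It stood at -0.09, 0.30, 0.39, 0.41 and 0.48 in XX Sry livers, at -0.19, 0.18, 0.21, 0.37 and 0.47 in XY-Sry livers and at -0.64, -0.51, -0.49, -0.32 and -0.27 in XX livers. The XY- values ran from -1.29 through -1.11, -0.90 and -0.29 to 0.06. The lowest of these was the library labelled XY- 30, and the highest, XY- 3, was the only female above the pool and lay above 2 of the gonadal males. The means were 0.30 ± 0.23, 0.21 ± 0.25, -0.44 ± 0.15 and -0.71 ± 0.57 in XX Sry, XY-Sry, XX and XY- livers (SD, n = 5 each). Gonadal males were 0.83 ± 0.14 (SE) higher, or 1.77-fold, with 0.74 ± 0.20 between XX groups and 0.91 ± 0.20 between XY groups. Without the library labelled XY- 30 these were 0.75 overall and 0.77 between XY groups, and without the 4 arrays of widest spread the overall difference was 0.94.

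St3gal5 separated the gonadal types with 2 very low XX livers. Its values were -0.10, 0.16, 0.22, 0.46 and 0.61 in XX Sry livers, -0.10, 0.27, 0.35, 0.35 and 0.40 in XY-Sry livers, and -0.74, -0.63, -0.51, -0.37 and 0.06 in XY- livers. In XX livers it stood at -1.65, -1.31, -0.46, -0.40 and -0.37. The low pair, XX 6 and XX 2, and the high XY- 12 are arrays of widest spread; XY- 12 was the only female above the pool, and 8 of 10 males were above it. The means were 0.27 ± 0.27 in XX Sry, 0.25 ± 0.21 in XY-Sry, -0.84 ± 0.60 in XX and -0.44 ± 0.31 in XY- animals (SD, n = 5 each). The gonadal types differed by 0.90 ± 0.16 (SE, 1.87-fold), with 1.11 ± 0.22 between XX groups and 0.69 ± 0.22 between XY groups. Without the 4 arrays of widest spread the difference between XX groups was 0.68 and that between XY groups 0.83, so their order turned with those arrays. The overall difference was 0.76 without them and 0.86 without the library labelled XY- 30.

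**Figure D1:**
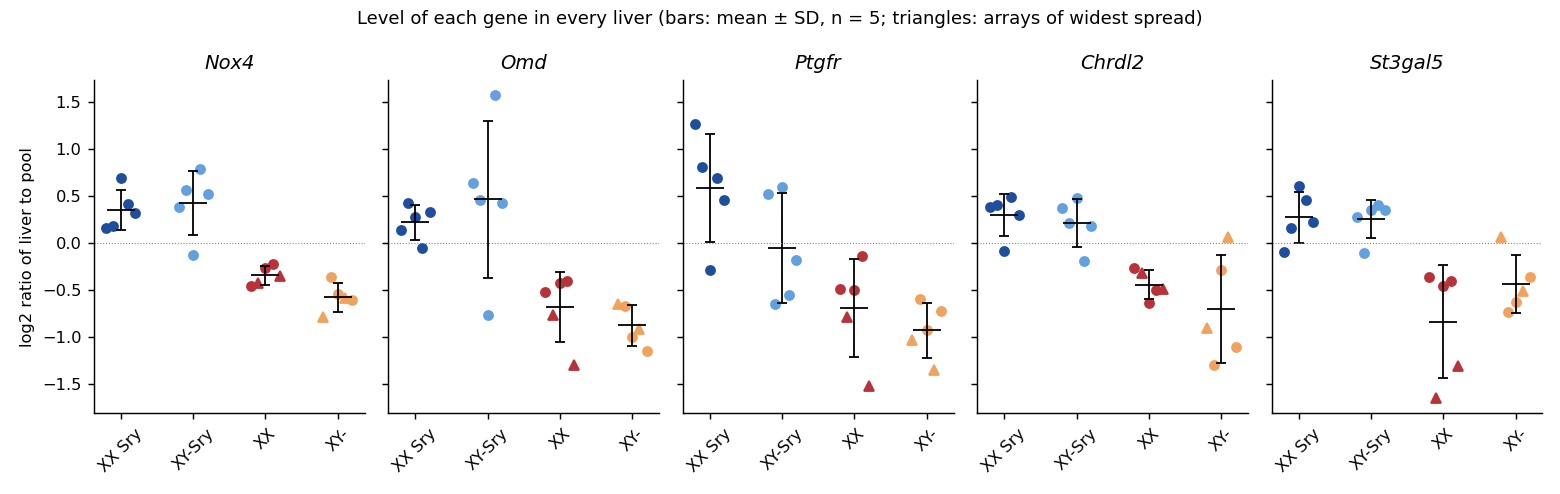
Log2 ratio of liver to pool (vertical axis) of the 5 genes in each of the 20 livers, by group (horizontal axis); points are animals, bars the group mean ± SD (n = 5) and triangles the 4 arrays of widest spread. Nox4 is the only gene of the 5 in which all gonadal males lie above all gonadal females, Omd has a male at -0.77 and one at 1.57, and St3gal5 has XX livers at -1.65 and -1.31.

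Ordered by group mean, XX Sry and XY-Sry were the top groups for all 5 genes, and XY- was the lowest for all but St3gal5, for which XX was lowest. The means of the top groups differed by less than the larger of their SDs for Nox4, Omd, Chrdl2 and St3gal5, and by more for Ptgfr. The means of the female groups differed by less than the larger SD for Omd, Ptgfr, Chrdl2 and St3gal5. For Nox4 the XX mean was 0.23 above the XY- mean, more than either SD. Their ranges overlapped only through the library labelled XY- 30 (-0.36), without which the highest XY- value was -0.55 and the lowest XX value -0.46. The share of all features that separate in this way was not counted. In the limma test of XX minus XY- livers Nox4 did not pass (0.23 ± 0.13 SE, limma adjusted p = 0.767). Nor did it without the library labelled XY- 30 (0.29 ± 0.14, limma adjusted p = 0.741). Without that library the XY- means were -0.63 for Nox4, -0.93 for Omd, -1.01 for Ptgfr, -0.56 for Chrdl2 and -0.36 for St3gal5, and the order of the groups was the same. The spread within groups was smallest for Nox4 (pooled SD 0.22) and largest for Ptgfr (0.51), with Chrdl2 (0.34), St3gal5 (0.38) and Omd (0.48) between.

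The sex chromosomes were the factor that the choice of genes did not use, and none of the 5 genes passed the test for it, and before adjustment none had p under 0.05 in the XX minus XY contrast over all 20 arrays. Over all features limma, with Benjamini-Hochberg adjustment and a threshold of 0.05, called 6 features between XX and XY livers (0.0277%), and 1099 features (5.08%) had p under 0.05 before adjustment. Ptgfr had the largest difference, 0.44 ± 0.21 (SE) higher in XX livers (95% interval -0.0026 to 0.88; limma adjusted p = 0.912). Among gonadal males alone Ptgfr was 0.64 ± 0.30 higher in XX Sry than in XY-Sry livers (limma adjusted p = 1), and among gonadal females 0.24 ± 0.30 higher in XX than in XY- livers. Without the library labelled XY- 30 the overall difference was 0.48 ± 0.22 (limma adjusted p = 0.745), and with array weights 0.55 ± 0.21 (limma adjusted p = 0.719). Before adjustment Ptgfr had p under 0.05 in both of these fits, in the fit without the 4 arrays of widest spread (0.50 ± 0.23) and in the contrast of XX Sry with XY-Sry. Chrdl2 differed by 0.18 ± 0.14 (interval -0.12 to 0.48), Nox4 by 0.08 ± 0.09 (-0.12 to 0.28), Omd by -0.03 ± 0.20 (-0.44 to 0.39) and St3gal5 by -0.19 ± 0.16 (-0.53 to 0.14). Their limma adjusted p ran from 0.926 to 0.987. The intervals are of the fit that keeps XY- 30 as labelled and allow differences of up to 0.28 for Nox4 and 0.88 for Ptgfr. In that fit an effect of the chromosomes on these genes is bounded and not shown to be absent. Without the library labelled XY- 30 the differences were 0.10 ± 0.13 for Chrdl2, 0.11 ± 0.10 for Nox4, -0.00 ± 0.21 for Omd and -0.23 ± 0.16 for St3gal5. Nox4 and Ptgfr were higher there than with all arrays, and intervals of that fit are not given. The sign for Omd and St3gal5 turned to 0.12 and 0.09 without the 4 arrays of widest spread.

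Nor did the size of the gonadal difference pass a test for depending on the sex chromosomes. The interaction, the gonadal difference in XX minus that in XY livers, was -0.31 ± 0.19 for Nox4 (95% interval -0.70 to 0.09), -0.44 ± 0.40 for Omd (-1.27 to 0.40) and -0.17 ± 0.29 for Chrdl2 (-0.77 to 0.43). It was 0.40 ± 0.42 for Ptgfr (-0.48 to 1.28) and 0.42 ± 0.32 for St3gal5 (-0.25 to 1.08). All 5 had a limma adjusted p of 0.9995, and with all 20 arrays weighted alike none had p under 0.05 before adjustment. Of all features 0 passed (0%), and 563 (2.6%) had p under 0.05 before adjustment. Leaving out the library labelled XY- 30, the values were -0.36, -0.49, -0.03, 0.32 and 0.49 for Nox4, Omd, Chrdl2, Ptgfr and St3gal5, and none passed. Single animals moved these estimates: over the fits without 1 animal they ran from -0.44 (without XY-Sry 20) to -0.22 (without XY-Sry 5) for Nox4 and from -0.74 to -0.16 for Omd without the same livers. They ran from -0.37 (without XY- 3) to -0.03 (without XY- 30) for Chrdl2, from 0.19 (without XX 2) to 0.62 (without XX Sry 9) for Ptgfr and from 0.21 (without XX 6) to 0.54 (without XX 29) for St3gal5.

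**Figure D2:**
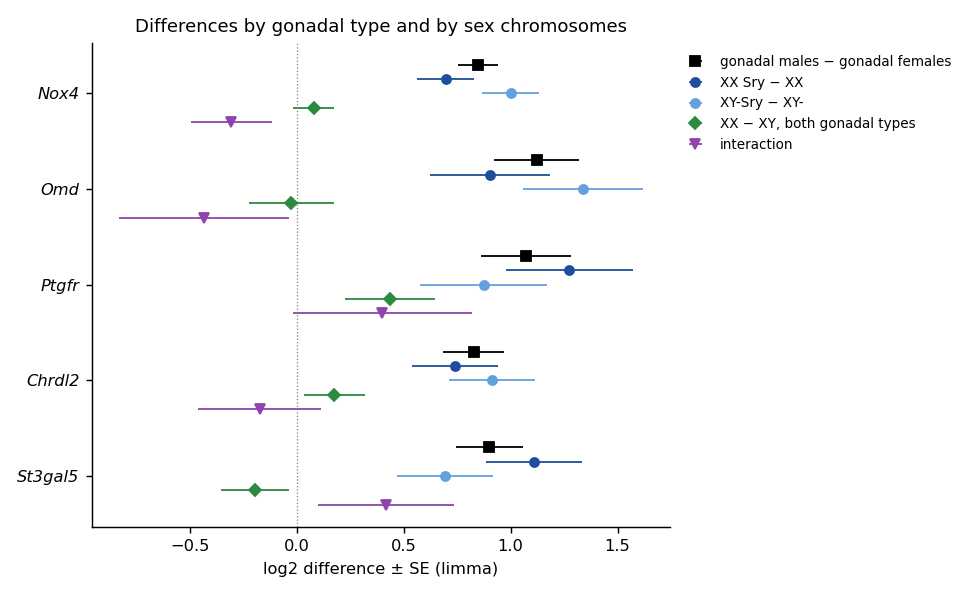
Log2 differences ± SE (horizontal axis) for each gene (vertical axis): gonadal males minus gonadal females (black), the same within XX and within XY livers (blue), XX minus XY, and the interaction. The gonadal differences, which chose the genes, lie between 0.69 and 1.34, whereas the XX minus XY differences lie between -0.19 and 0.44.

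Within gonadal males, 3 of the 5 genes varied against or with each other from liver to liver. Nox4 was high where Chrdl2 was low (Pearson r = -0.83, Spearman rho = -0.78, n = 10; permutation p = 0.00167, adjusted over 20 correlations p = 0.0334) and where Ptgfr was low (r = -0.78, rho = -0.82; permutation p = 0.00692, adjusted p = 0.0461). Ptgfr and Chrdl2 varied together (r = 0.79, rho = 0.82; permutation p = 0.00484, adjusted p = 0.0461). The livers with the highest Nox4, XY-Sry 5 (0.78) and XX Sry 9 (0.69), had the lowest Chrdl2 (-0.19 and -0.09), and their Ptgfr was -0.56 and -0.29. XY-Sry 20 had the lowest Nox4 (-0.13), with Chrdl2 at 0.47 and Ptgfr at 0.59. The mean of 9 measured hepatocyte markers (15 listed) was also highest in XY-Sry 5 (0.20) and XX Sry 9 (0.10) and lowest in XY-Sry 20 (-0.16) of the 10 males. The other 7 males lay between -0.07 and 0.09. The 9 markers varied unequally, with an SE of their gonadal difference from 0.03 to 0.38, so their mean leans on the most variable ones. In the Kupffer cell, stellate cell and lymphocyte means the highest male was XY-Sry 14. The lowest was XX Sry 18 for Kupffer and stellate cells and XY-Sry 5 for lymphocytes. The part of the hepatocyte markers in these correlations was not tested. Left without the 2 livers farthest from the median of the first gene, the 3 correlations were -0.79, -0.89 and 0.80 (n = 8). By rho none of the 3 passed (adjusted permutation p = 0.0695, 0.0582 and 0.0582). They did not pass either with all arrays scaled to a common spread (adjusted permutation p = 0.0607, 0.0777 and 0.0607), where r was -0.79, -0.74 and 0.80. Nox4 and Omd correlated too (r = 0.77, rho = 0.54; adjusted permutation p = 0.0501), but this rests on XY-Sry 20 and XY-Sry 5, without which r was 0.12.

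The same pairs looked different in gonadal females. There 0 of 10 correlations passed: r was 0.05 for Nox4 with Chrdl2, 0.48 for Nox4 with Ptgfr and -0.28 for Ptgfr with Chrdl2 (n = 10; permutation p = 0.897, 0.163 and 0.441). Omd and Ptgfr came nearest (r = 0.76, rho = 0.76; permutation p = 0.0108, adjusted p = 0.0501), with XX 2 low and XX 35 high in both. Without the library labelled XY- 30 r was 0.22 for Nox4 with Chrdl2, 0.46 for Nox4 with Ptgfr, -0.22 for Ptgfr with Chrdl2 and 0.76 for Omd with Ptgfr. Whether the correlations differ between the gonadal types was not tested. When each male's deviation from the mean of its own group was used, with resampling within groups (a choice made after the data were seen), 1 correlation passed, Nox4 with Ptgfr (r = -0.84, adjusted permutation p = 0.0192). The pairs Nox4 with Chrdl2 (r = -0.83) and Ptgfr with Chrdl2 (r = 0.82) then had an adjusted permutation p of 0.0531 and 0.0559. The 4 arrays of widest spread are all of females and take no part in the correlations among males.

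**Figure D3:**
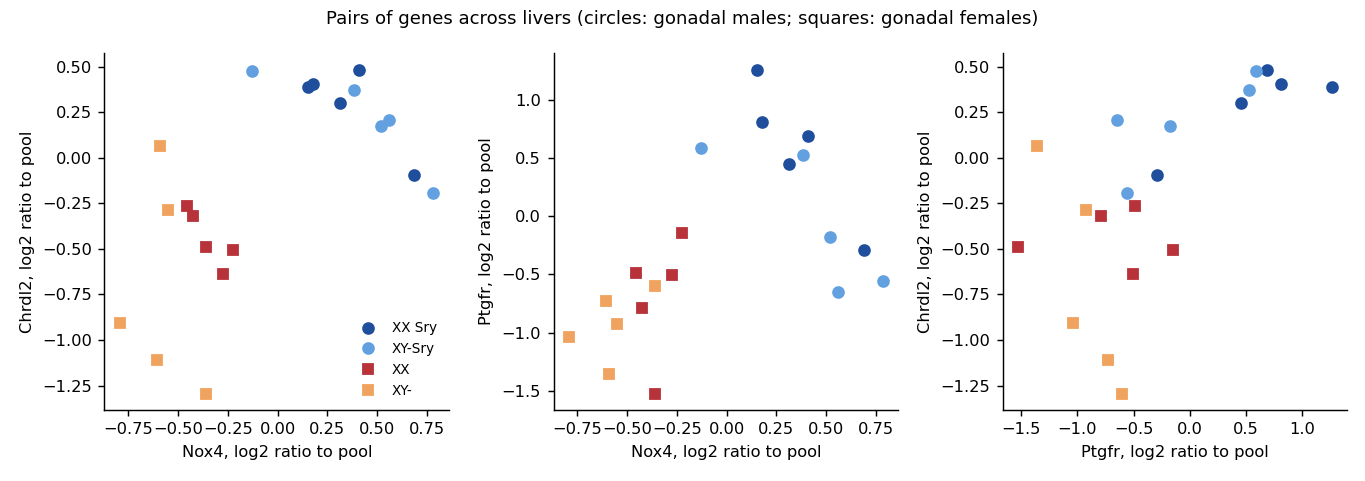
Log2 ratios to pool of 3 pairs of genes in the 20 livers; circles are gonadal males and squares gonadal females, coloured by group. Among the circles Chrdl2 and Ptgfr fall as Nox4 rises (r = -0.83 and -0.78) and Chrdl2 rises with Ptgfr (r = 0.79), while the squares show r of 0.05, 0.48 and -0.28.

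Over 5 lists of relatives and pathway partners of the members, 102 genes were measured, of which 0 were called higher in gonadal males and 5 lower by limma, against 1.46% of all features called higher and 2.28% lower (3.74% in either direction). The counts are near these shares and show nothing particular to the lists. The highest of the 102 was the follistatin gene Fst at 0.29 (limma adjusted p = 0.394), chosen after its value was seen. It lay below each of the 5 members, but they were chosen for this same difference, so that order follows from the choice. The lists' medians lay between -0.06 and -0.01, and that of all features was 0.0075. No gene of these lists was called between XX and XY livers. Without the library labelled XY- 30 the counts were again 0 and 5.

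Of 11 measured genes of the NADPH oxidase family out of 18 listed, 2 fell: Rac2, the small GTPase of the phagocyte oxidase, by 1.26 ± 0.24 (limma adjusted p = 0.00659), and Ncf4, its p40 subunit, by 1.01 ± 0.23 (limma adjusted p = 0.0187). Both are known from blood cells. Of the Kupffer cell and lymphocyte markers 6 of 14 each fell as well, and their part in these 2 differences was not tested. Cybb, the catalytic subunit of the phagocyte enzyme, was at -0.19 ± 0.12 and Poldip2, a protein that binds the Nox4 complex, at -0.08 ± 0.04; neither passed.

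Of 11 measured small leucine-rich proteoglycans besides Omd (14 listed), 0 passed. Ogn (osteoglycin), which lies next to Omd, was at 0.06 ± 0.09, Lum (lumican) at -0.16 ± 0.14, Optc at -0.12 ± 0.05, Chad at -0.06 ± 0.06 and Nyx at -0.03 ± 0.04. Among 21 measured genes of prostanoid synthesis and receptors (29 listed), 1 fell: Tbxas1, which makes thromboxane, by 0.26 ± 0.06 (limma adjusted p = 0.0203). The thromboxane receptor Tbxa2r (-0.16 ± 0.05), the prostaglandin dehydrogenase Hpgd (-0.38 ± 0.13) and the carbonyl reductase Cbr1 (0.23 ± 0.07) did not pass. Cbr1 passed as higher in gonadal males in 2 alternatives, with array weights (0.22, limma adjusted p = 0.0342) and without XY-Sry 5 (0.26, limma adjusted p = 0.0428).

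BMP ligands, antagonists, receptors and targets, the partners of Chrdl2, gave 0 calls in 34 measured of 40 listed. The endothelial receptor gene Acvrl1 was at -0.20 ± 0.06, the ligand genes Bmp5 and Bmp7 at -0.24 ± 0.07 and -0.21 ± 0.10, and the BMP-binding Bmper at -0.42 ± 0.14. Of 25 measured genes of ganglioside synthesis and breakdown besides St3gal5 (31 listed), 2 fell, both of breakdown. The lysosomal beta-galactosidase Glb1 fell by 0.32 ± 0.04 (limma adjusted p = 6.8e-04) and the glucosylceramidase Gba2 by 0.35 ± 0.09 (limma adjusted p = 0.0416). Another sialyltransferase, St3gal6, was at -0.41 ± 0.13 and the sialidase Neu2 at -0.15 ± 0.07; they did not pass. The call of Gba2 did not hold in 13 of the 20 fits without 1 animal and without the 4 arrays of widest spread. Rac2, Ncf4, Tbxas1 and Glb1 were called in all 20 and also in that fit.

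**Figure D4:**
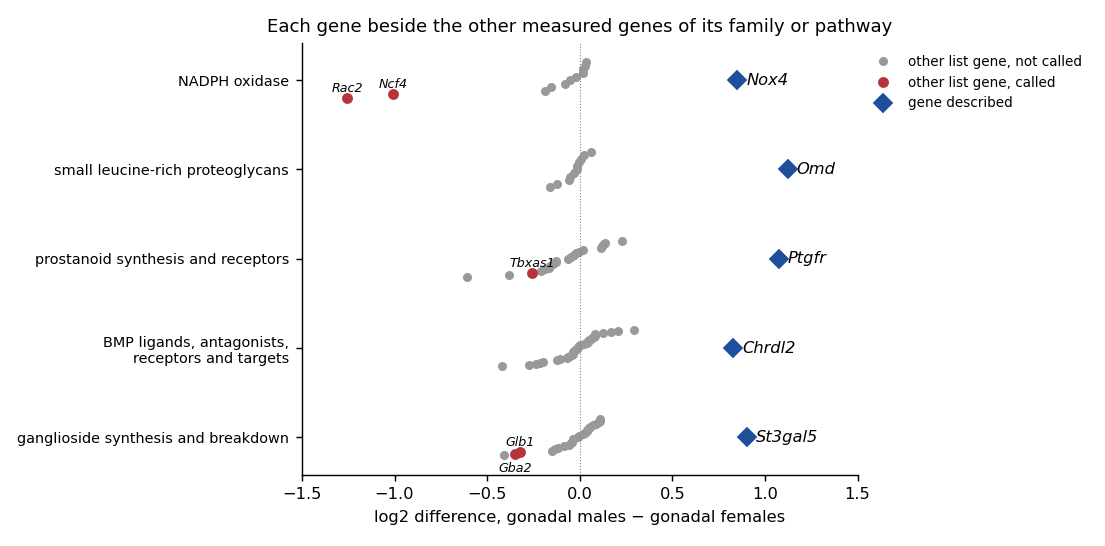
Log2 difference of gonadal males minus gonadal females (horizontal axis) of each gene and of the other measured genes of its family or pathway (rows); diamonds are the 5 genes, red points other genes past a limma adjusted p of 0.05 and grey points the rest. The diamonds, which were chosen for this difference, lie between 0.83 and 1.12, and no other listed gene lies above 0.29.

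The markers of liver cell types that passed the test were all lower in gonadal males, where the 5 genes were higher. Of 77 measured markers of 9 cell types, 0 were called higher and 16 lower in gonadal males by limma, also without the library labelled XY- 30. Of all features 1.46% were called higher and 2.28% lower. Of 14 Kupffer cell and macrophage markers 6 fell, with a list median of -0.84, such as C1qb (-0.63 ± 0.12, limma adjusted p = 0.00699) and Clec4f (-0.82 ± 0.17, limma adjusted p = 0.0106). Of 14 lymphocyte markers 6 fell, among them Il2rb (-1.70 ± 0.16) and Cd3g (-1.11 ± 0.14), with a median of -0.14. The calls of the macrophage C1qa and the lymphocyte Cd8a (both chosen after their values were seen) did not hold in 13 and 15 of the 20 fits without 1 animal. Of 17 stellate cell and fibroblast markers 3 fell: Col1a1 (-0.87 ± 0.19), Colec11 (-0.24 ± 0.06) and Pdgfrb (-0.39 ± 0.10; chosen after its value was seen). The calls of Colec11 and Pdgfrb did not hold in 4 and 8 of those fits. None of these 4 calls (C1qa, Cd8a, Colec11 and Pdgfrb) held without the 4 arrays of widest spread. Of 5 erythroid markers Hba-a1 fell (-0.56 ± 0.13), and 0 of 9 endothelial, 4 cholangiocyte, 4 adipocyte, 4 pancreatic acinar and 9 hepatocyte markers passed. The lists without a call had medians from -0.11 to 0.02. Without the 4 arrays of widest spread 1 marker was higher in gonadal males, the lymphocyte granzyme Gzma (0.51; chosen after its value was seen).

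By liver, the mean of the Kupffer cell markers ran from -0.95 to -0.58 in XX Sry, from -0.73 to 0.37 in XY-Sry, from -0.19 to 0.58 in XX and from -0.31 to 1.60 in XY- livers. The stellate cell means ran from -0.16 to -0.07, -0.15 to 0.08, 0.02 to 0.24 and -0.09 to 0.29 in the same order. The lymphocyte means ran from -0.25 to -0.13, -0.38 to -0.12, 0.05 to 0.39 and -0.02 to 0.67. The hepatocyte means ran from -0.06 to 0.10, -0.16 to 0.20, -0.15 to 0.21 and -0.09 to 0.07. XY-Sry 14 had a Kupffer cell mean (0.37) inside the range of the females, and its Nox4 (0.52), Omd (0.42), Ptgfr (-0.18), Chrdl2 (0.18) and St3gal5 (0.35) lay within the range of the other males. XY- 12, the liver with the highest Kupffer cell mean (1.60), had the lowest Nox4 (-0.79) and the highest St3gal5 of the females (0.06). The part of cell composition in the results on the 5 genes was not tested. In whole liver, fewer cells of a type and less RNA per cell cannot be told apart.

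Genes with a profile like that of a member were ranked by Pearson's r over the 20 livers among 10842 named genes, as a description, since all arrays share the pool and the group differences. Nox4 and Omd were each other's nearest gene (r = 0.88, and 0.90 without the 4 arrays of widest spread). Both were chosen for the difference between gonadal types, which enters this r. Over deviations from the group means their r was 0.65 (rho = 0.31), with Omd at rank 25 in likeness to Nox4. After Omd, Nox4 was most like Ipo7 (importin, 0.85) and Cyp2d9 (a male-biased cytochrome P450 of mouse liver, 0.84). After Nox4, Omd was most like the phosphatase gene Ublcp1 (0.84) and Nkiras1 (0.84). Ptgfr was most like Odc1, of polyamine synthesis (0.84), Bnip3, of mitophagy (0.83), and the splicing factor gene Tra2b (0.83). Chrdl2 was most like Camta2 (0.82), the securin gene Pttg1 (0.82) and the chloride and proton exchanger gene Clcn5 (0.81). St3gal5 was most like Tceal1 (0.94), Mttp, which loads lipid onto apolipoprotein B (0.89), and Wdr75 (0.88).

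When the group means were taken out, so that only differences between animals of the same group counted, the nearest genes were others in every case but Tceal1. For Nox4 they were Cyp2c50 (0.76), Slc25a29 (0.74) and Cldn14 (0.74), and for Omd Slc6a4 (0.77), Cngb3 (0.77) and Pafah1b1 (0.75, but rho = 0.33). For Ptgfr they were Coq7, of ubiquinone synthesis (0.81), the keratin gene Krt18 (0.78) and Tbrg4 (0.78), and for Chrdl2 Pacsin3 (0.84), the histone gene H3c2 (0.82) and Mrps35, of the mitochondrial ribosome (0.77). For St3gal5 they were Tdrp (0.84), Tceal1 (0.83) and Angptl4, an inhibitor of lipoprotein lipase (0.80). The likeness of these last 3 to St3gal5 rests largely on the 4 arrays of widest spread, without which it was 0.37, 0.51 and 0.40. By contrast Lpin1, a phosphatidate phosphatase gene (chosen after its values were seen), had r = 0.52 with St3gal5 over these deviations and 0.93 without those arrays. Over the values themselves Lpin1 ranked 4 in likeness to St3gal5 (0.85), with 0.97 without those arrays (n = 16). Leaving out the arrays was a choice made after the data were seen.

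The neighbours of the 5 genes on the chromosome gave a count near the background. Of the 3 nearest measured genes on each side, 30 in all, limma called 1 higher and 0 lower in gonadal males (all features: 1.46% and 2.28%), with differences from -0.50 to 0.42 and a median of 0.03. The 1 called was Nol8, a nucleolar protein gene 60.5 kb from Omd (0.42 ± 0.10, adjusted p = 0.0285), whose call did not hold in 6 of the 20 fits without 1 animal and without the 4 arrays of widest spread. Cenpp, a centromere protein gene whose span holds Omd, was at -0.00 ± 0.06, and Ogn, 15.4 kb from Omd, at 0.06 ± 0.09. Tyr (tyrosinase), 26.1 kb from Nox4, was at 0.02 ± 0.04, and Ctsc (cathepsin C), 879 kb away, at -0.50 ± 0.16 (limma adjusted p = 0.0950). Next to Ptgfr, the interferon-induced Ifi44l was at 0.36 ± 0.14, and next to Chrdl2 Rnf169 was at -0.01 ± 0.04 and Pold3 at 0.07 ± 0.14. Polr1a and Atoh8, which flank St3gal5, were both at 0.08, with SE of 0.10 and 0.07.

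**Figure D5:**
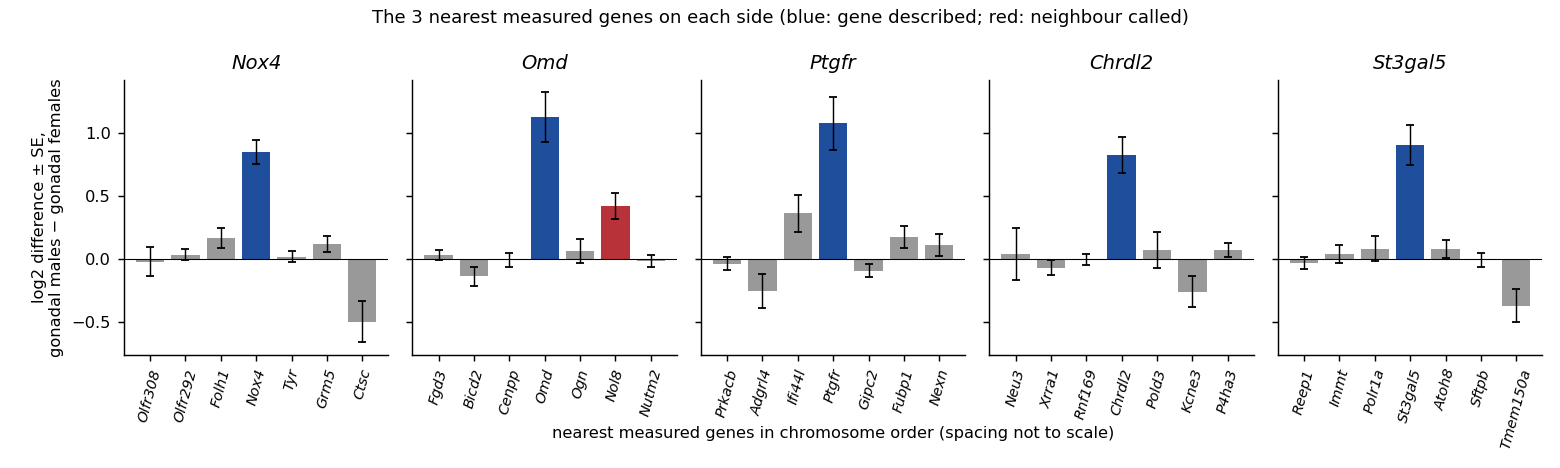
Log2 difference of gonadal males minus gonadal females ± SE (vertical axis) of each gene (blue) and its 3 nearest measured neighbours on either side, in chromosome order with spacing not to scale; red marks a neighbour past a limma adjusted p of 0.05. Each of the 5 genes stands above its neighbours, which lie between -0.50 and 0.42. The 5 genes were chosen for this difference, so that order follows from the choice.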

How the data were processed

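Liver RNA of 20 mice (Cy5) was compared with a common liver pool (Cy3) on 2-colour arrays, per the labels. The authors deposited 1 value per probe and array. Scanner, background correction, dye normalization, log base and direction are not given in the sources used here. As deposited, the values were taken for log10 ratios of liver over pool, because Y-linked genes were above the pool in XY livers and far below it in XX livers; another base would scale all differences alike. They were limited at a size of 2 (29 values), 2 values were missing, and the depth of an array is unknown.

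Values were converted to log2, and probes of the same gene were averaged, which gave 21643 features, 11734 of them named genes; 9861 probes were not listed in the platform annotation and stay unnamed here. Names, gene order and promoter windows of 250 bases came from RefSeq tables (GRCm38.p6). Group means were fitted over all 20 arrays with limma 3.58.1 in R 4.3.3 (lmFit, eBayes), with Benjamini-Hochberg adjustment over all features and a threshold of 0.05. No value was filtered on intensity. SE and 95% intervals are limma's. Correlations between the 5 genes were tested within gonadal type by two-sided permutation (100000 resamples, Python 3.11.15, scipy 1.17.1) and adjusted over 20. Tested on simulated data, the fit for gonadal type recovered 82% of log2 changes of 0.5, 98% of 1 and 100% of 2. The simulated noise was independent between features and arrays, without the correlations and unequal spread of the real arrays. Changes were planted only between gonadal types, so recovery was not measured for XX minus XY or the interaction. The labels number the animals but name no cage or litter, so p-values measure the spread between these animals.

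The 5 genes, the 14 lists and the tests were chosen with earlier results of these data known. Besides the 5, the text names up to 4 genes of each pathway list and 2 of each marker list with the smallest p, the 3 most like genes of each member, the 3 neighbours per side and sex-linked label checks, except where said. Alternatives were leaving out each animal or the 4 arrays of widest spread, median centring, quantile normalization, scaling to a common median absolute deviation, array weights, trend and robust eBayes, each probe alone, and only the groups of a contrast. No explanation was weighed.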

Additional observations from a re-analysis of the deposited data

Results flagged for a closer look

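St3gal5 in the liver XY-Sry 27 stood apart from the other 4 livers of its group: its log2 ratio to the pool was -0.104, against 0.27 to 0.40. The gap to the nearest liver was 0.749 of the group's range, above Dixon's critical value of 0.71 for 5 samples. The 5 genes in 4 groups made 20 such checks, of which chance flags about 1 in 20. The same liver had the lowest Ptgfr of the gonadal males (-0.65), and its Nox4 (0.56) was the third highest of the 10.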

How the results depend on the processing

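No paired analysis was possible because every animal has its own number and the groups share none. None of the 5 genes passed for sex chromosomes or for the interaction under any alternative, and every gonadal difference kept its direction. Leaving out 1 animal gave gonadal differences of 0.80 to 0.92 for Nox4, 0.98 to 1.28 for Omd, 0.97 to 1.18 for Ptgfr, 0.75 to 0.92 for Chrdl2 and 0.80 to 0.96 for St3gal5. Without the 4 arrays of widest spread the St3gal5 difference between XX groups was 0.68, its interaction -0.15, and XX minus XY was 0.0913 for St3gal5 and 0.12 for Omd. Omd was also turned by scaling to a common median absolute deviation (0.0197), by array weights (0.0406) and in 4 fits that left out 1 animal, whose range was -0.18 to 0.11 (0.00816 without XX Sry 31, 0.11 without XY-Sry 5, 0.0502 without XX 2, 0.00146 without XY- 12). Features higher in gonadal males numbered 698 with array weights and 123 to 510 (316 with all arrays) when 1 animal was left out, with 123 without XY-Sry 19, 136 without XX Sry 31 and 510 without the library labelled XY- 30. Features lower in gonadal males numbered 765 with quantile normalization, 858 with array weights and 268 to 619 when 1 animal was left out, with 268 without XX Sry 31 and 270 without XY-Sry 19. Between XX and XY livers the higher count (1 with all arrays) was 0 without the widest arrays, with trend and robust eBayes or with each probe alone, 3 with the common spread and 0 to 2 when 1 animal was left out. The lower count (5) was 0 without the widest arrays, 8 with quantile normalization, 9 with the common spread, 11 with array weights, 2 with trend and robust eBayes and 2 to 11 when 1 animal was left out (11 without the library labelled XY- 30). Pathway genes called higher numbered 1 (Cbr1) with array weights and 0 to 1 when 1 animal was left out, those called lower 8 with quantile normalization, and markers called higher 1 without the widest arrays. Correlations past the threshold, 3 with all arrays, numbered 0 with the common spread and 1 on deviations from group means. Uncalled correlations turned for Omd with St3gal5 in males (-0.0806 with the common spread), Nox4 with Chrdl2 in females (-0.28 on deviations) and Omd with Chrdl2 in females (0.26 with the common spread, 0.0667 without the library labelled XY- 30). The cause of these changes was not tested. Depth and signal over background are unknown, and 5 animals a group limit the precision.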

Other observations

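Among all named genes, the rhythmic transcription factor gene Nfil3 (chosen after its values were seen) was near the opposite end from Ptgfr: over deviations from the group means r was -0.80 (rho = -0.72), rank 10839 of 10842, and -0.73 without the 4 arrays of widest spread. Its own difference between gonadal types was -0.07. Crat, a carnitine acetyltransferase gene, and the peroxisomal genes Acaa1a and Pex11a (chosen after their values were seen) ranked 4, 5 and 8 in likeness to St3gal5 over deviations from the group means, with r = 0.80, 0.79 and 0.78. Without the 4 arrays of widest spread these were 0.40, 0.13 and 0.40. These values are descriptions over 20 livers that share the pool, and no test was made of them.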
